A study of Mus musculus with 8 samples.

Results

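Developmental homeobox genes encode transcription factors that assign position and cell identity in the embryo, and they were followed here in the striatum of old mice with an expanded Htt repeat. The members were chosen by name: every gene whose platform symbol begins with Hoxa, Hoxb, Hoxc, Hoxd, Lhx, Pax, Dlx, Pitx, Irx, Onecut, Otx, Gbx or Msx and a digit, with Nkx1 or Nkx2, a hyphen and a digit, or with the prefix that Six3 shares with its family and a digit. Of 18194 genes measured through a probe set that matches 1 gene, 97 met this rule, 86 protein-coding genes and 11 antisense or opposite-strand transcripts named after a neighbouring homeobox gene. Where a gene had several probe sets, the one with the highest mean over the 8 arrays stood for it, and 38 of the 97 had more than 1. Hoxb8 and Hoxd4 were matched through probe sets shared with another Hox gene and were left out.

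The CHL2 mutants (Q150/Q150) model Huntington's disease: a stretch of 150 CAG repeats, taken with exon 1 of the human HD gene, was placed into both endogenous alleles, so that every cell of the animal carries the change. Mice 141, 153 and 154 of this group were female and mouse 191 was male. The wild-type mice were 161, a female, and 170, 180 and 200, which were males. All 8 mice were 22 months old and of the strain C57BL/6 X CBA F1 hybrid, and each gave 1 Affymetrix whole-genome array from striatal total RNA. The values are on the log2 scale after RMA, the authors' background correction, normalization and probe summary. Because 3 of 4 mutants but 1 of 4 wild-type mice were female, every log2 change below is mutant minus wild type adjusted for recorded sex in a limma fit over all 18194 genes, which is why some changes are unlike the plain gap between means. A gene is said to rise or fall where its adjusted p was under 0.05 after Benjamini-Hochberg adjustment over all genes.

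A homeobox gene carries a short conserved stretch that codes for a DNA-binding domain, the homeodomain. Hox genes lie in 4 clusters, and in mammals their order within a cluster follows their order of expression along the body axis, with little expression in front of the hindbrain. Dlx, Lhx, Nkx2, Otx, Pax, Gbx and Onecut genes act in the developing brain, where Dlx, Six3, Lhx6, Lhx8 and Nkx2-1 serve the ventral forebrain that gives rise to the striatum and its interneurons. Polycomb group proteins keep many of these genes silent outside the cells that need them.

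Most of these genes gave little signal in adult striatum. For 64 of the 97 members (66.0%) all 8 values lay under 5, the log2 of 32, a level near the array's background, and the same held for 34.4% of all genes tested. Another 19 members lay at or above 5 in every mouse, and 14 had values on both sides. The median level of the members was 4.10, against 6.19 for all genes. Means over the 8 mice ran from 3.13 for the probe set of Six6, an eye and hypothalamus factor, to 9.52 for that of Six3, a forebrain factor, although different probe sets share no common scale of level.

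Between the genotypes, 6 of the 97 members (6.19%) passed the threshold, against a background of 12.4% of all genes tested. Hoxc4, Onecut1, Nkx2-2 and Pax6 rose in the mutants, where 6.40% of all genes rose, and Lhx2 and Gbx1 fell, where 6.01% of all genes fell. Among the 23 members with a mean of 5 or more 4 passed (17.4%), against 18.4% of all genes at such levels, and of the 74 dimmer members 2 passed (2.70%), against 2.54% of all dim genes. Onecut1 counts among the 23 with a mean of 5.01 although all its wild-type values lay under 5. The median log2 change of the members was -0.04, against 0.01 over all genes. At an unadjusted p under 0.05 there were 11 members (11.3%), against 25.8% of all genes, and among those with a mean of 5 or more the shares were 26.1% of members and 35.9% of genes. For 8 members (8.25%) the mutants lay wholly on one side of the wild-type mice, against 20.7% of all genes, and at means of 5 or more this held for 13.0% of members and 29.8% of genes. Besides the called genes other than Pax6, these were Dlx4 with a log2 change of 0.22, Irx4 with one of -0.24 and Dlx6os2 with one of -0.06, all under 5 in every mouse.

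**Figure D1:**
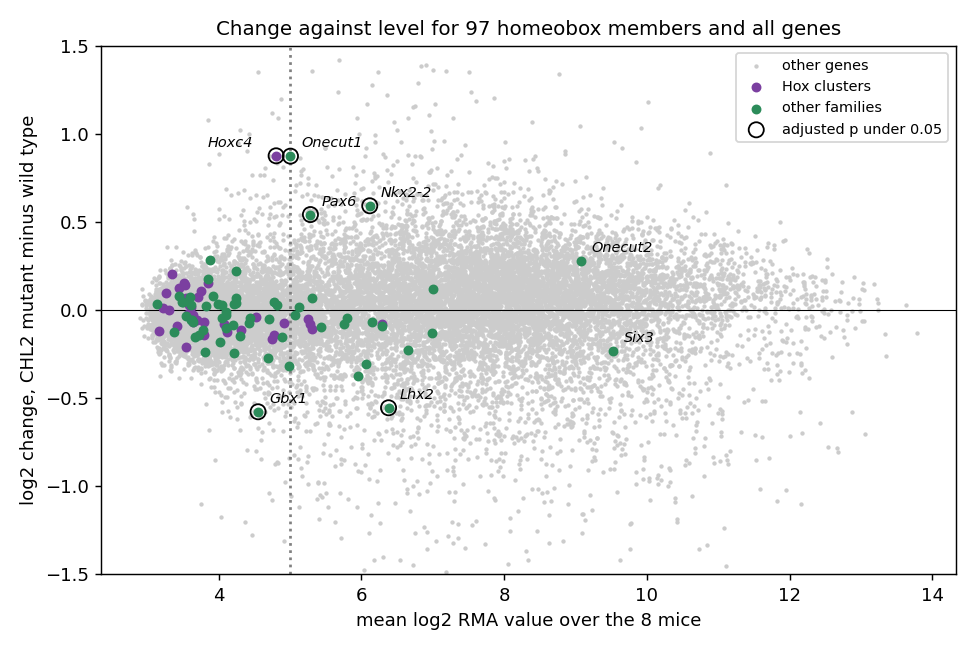
Log2 change of the CHL2 mutants over wild type (vertical axis) against the mean log2 value over the 8 mice (horizontal axis) for the 97 homeobox members, in colour, and all other genes, in grey; circled points have an adjusted p under 0.05, the dotted line marks a level of 5, and genes changed by more than 1.5 on the log2 scale lie outside the frame. Most members sit to the left of the line and close to 0, with Hoxc4 at 0.88 and Onecut1 at 0.87 above them and Gbx1 at -0.58 and Lhx2 at -0.55 below.

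Hoxc4 rose in the mutants. It encodes a Hox protein of the fourth paralogue group, known for patterning the neck and upper trunk. Its values were 5.36, 5.25, 5.41 and 5.10 in mutants 141, 153, 154 and 191, against 4.36, 4.32, 4.23 and 4.41 in wild-type mice 161, 170, 180 and 200. Every mutant lay above every wild-type mouse, and all 4 wild-type values lay under 5. The means were 5.28 ± 0.14 in mutants and 4.33 ± 0.08 in wild-type mice (SD, n = 4 each), a rise of 1.84-fold (log2 change 0.88, SE 0.09, limma adjusted p = 0.000235). With values held at a floor of 5 the change was 0.22 and the call was lost (adjusted p = 0.127), since all wild-type values lay below that floor. In the other 16 alternative settings that tested it, the call held. Hoxc4 was read by 1 probe set, so the setting that averages probe sets used the same values for it.

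Onecut1 encodes a cut-homeodomain factor of liver, pancreas and neuron development. It had values of 5.38, 5.82, 5.31 and 5.34 in mutants 141, 153, 154 and 191, against 4.55, 4.34, 4.79 and 4.51 in wild-type mice 161, 170, 180 and 200. The groups did not overlap, and the wild-type values again lay under 5 throughout. The gene averaged 5.46 ± 0.24 in mutants and 4.55 ± 0.19 in wild-type mice (SD, n = 4 each), a rise of 1.83-fold (log2 change 0.87, SE 0.15, limma adjusted p = 0.00422). The call was lost without wild-type mouse 161 (log2 change 0.79, adjusted p = 0.0804) and at the floor of 5 (log2 change 0.42, adjusted p = 0.161). It held without mouse 161 when sex was left out of the fit too.

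Nkx2-2 encodes a factor of the ventral neural tube that also serves the maturation of oligodendrocytes, the myelin-forming cells. It was measured at 6.05, 6.37, 6.18 and 6.69 in mutants 141, 153, 154 and 191, against 5.74, 6.02, 5.89 and 5.99 in wild-type mice 161, 170, 180 and 200. The lowest mutant stood just above the highest wild-type mouse, and none of the values was under 5. The means were 6.32 ± 0.28 in mutants and 5.91 ± 0.13 in wild-type mice (SD, n = 4 each), and the sex-adjusted rise was 1.51-fold (log2 change 0.59, SE 0.10, limma adjusted p = 0.00457) beside a plain difference of the means of 0.41. Mutant 191, the male of its group, was the highest mouse. Without mutant 191 the log2 change was 0.47 (adjusted p = 0.116), and with sex also left out of that fit it was 0.29 (adjusted p = 0.0911). Without wild-type mouse 161 the call held (adjusted p = 0.0233), but not with sex left out too (log2 change 0.36, adjusted p = 0.119). Of 6 markers of the oligodendrocyte lineage, 1 passed (16.7%), against 12.4% of all genes and 18.4% of genes with a mean of 5 or more. It was Olig1, which rose by 0.43 on the log2 scale. Olig2 had a log2 change of 0.35 (limma adjusted p = 0.152) and Pdgfra, a marker of the precursors, one of 0.05. Log2 changes were above 0 for 5 of the 6, with a list median of 0.07 and a lowest value of -0.13. The mean log2 level of the 6 ranged over 9.14 to 9.28 in mutants and 8.99 to 9.18 in wild-type mice. The part of these cells in the Nkx2-2 result was not tested, and in whole tissue more cells of a type and more RNA per cell cannot be told apart.

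Pax6, a paired-box and homeobox factor of eye and forebrain development, rose with overlapping groups. Its values were 5.02, 5.65, 5.57 and 5.73 in mutants 141, 153, 154 and 191, against 4.93, 5.12, 5.10 and 5.16 in wild-type mice 161, 170, 180 and 200. Mutant 141 lay inside the wild-type range, so the groups overlapped. The means were 5.49 ± 0.32 in mutants and 5.08 ± 0.10 in wild-type mice (SD, n = 4 each), with a log2 change of 0.54 (SE 0.15, limma adjusted p = 0.0352). The call was lost in 11 of 17 alternative settings, among them the fit without sex (adjusted p = 0.0676) and the mean of its 5 probe sets (log2 change 0.16, adjusted p = 0.285). Leaving out any of mutants 154 and 191 or of the 4 wild-type mice also ended it, with the highest adjusted p, 0.273, without mutant 191. Among 6 astrocyte markers, a cell type in which Pax6 is known to be expressed, Gfap rose by 0.48 on the log2 scale and the other 5 had log2 changes of -0.22 to 0.22. That is 16.7% called, against 12.4% of all genes and 18.4% of genes with a mean of 5 or more. The mean log2 level of the 6 ranged over 9.78 to 9.91 in mutants and 9.71 to 9.89 in wild-type mice, and its part in the Pax6 result was not tested.

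Lhx2 fell in the mutants. It encodes a LIM-homeodomain factor of cortical and hippocampal development. It had values of 5.90, 6.37, 5.90 and 6.19 in mutants 141, 153, 154 and 191, against 6.68, 6.70, 6.71 and 6.60 in wild-type mice 161, 170, 180 and 200. The 4 wild-type mice lay close together and above every mutant. The means were 6.09 ± 0.23 in mutants and 6.67 ± 0.05 in wild-type mice (SD, n = 4 each), a fall of 1.47-fold (log2 change -0.55, SE 0.12, limma adjusted p = 0.0159). The call was lost without wild-type mouse 161 (adjusted p = 0.189) or mutant 191 (adjusted p = 0.105), with log2 changes of -0.48 and -0.63, and at the floor of 5 (adjusted p = 0.0803). No Lhx2 value lay under 5, so the floor left its log2 change as it was and acted through the fit and adjustment over all genes. With sex left out the call held without either mouse. The mean log2 level of 7 markers of cortical neurons, a neighbouring tissue where Lhx2 acts in development, ranged over 5.37 to 6.69 in mutants and 5.86 to 6.53 in wild-type mice. By mouse it was 5.79, 5.94, 6.69 and 5.37 in mutants 141, 153, 154 and 191. In wild-type mice 161, 170, 180 and 200 it was 6.53, 5.86, 6.39 and 5.87. Of the 7, 6 had log2 changes below 0, like Lhx2, with a list median of -0.30. Fezf2 was the 1 that passed (14.3%, against 12.4% of all genes), with a log2 change of -0.67. Slc17a7 had one of -1.45 (limma adjusted p = 0.0574) beside a plain difference of the means of -0.52. The part of cortical tissue in the Lhx2 result was not tested.

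Gbx1 encodes a gastrulation brain homeobox factor that in the mouse embryo is expressed in the ventral forebrain and spinal cord. It had values of 4.48, 4.47, 4.25 and 4.21 in mutants 141, 153, 154 and 191, against 5.15, 4.53, 4.60 and 4.72 in wild-type mice 161, 170, 180 and 200. The groups did not overlap, but wild-type mouse 161 alone lay above 5. The means were 4.35 ± 0.14 in mutants and 4.75 ± 0.28 in wild-type mice (SD, n = 4 each), and the sex-adjusted fall was 1.49-fold (log2 change -0.58, SE 0.11, limma adjusted p = 0.00641). Without wild-type mouse 161 the log2 change was -0.41 and the call was lost (adjusted p = 0.145), as it was in the fit without sex (log2 change -0.40, adjusted p = 0.0637) and at the floor of 5 (log2 change -0.08, adjusted p = 0.265).

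**Figure D2:**
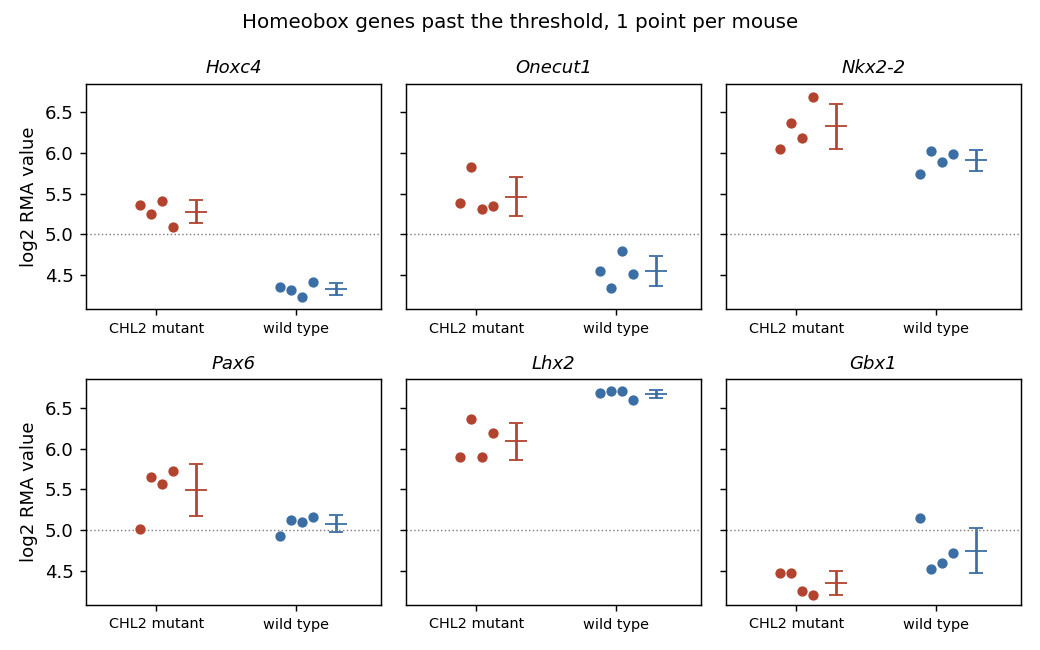
Log2 RMA values of the 6 homeobox genes past the threshold, 1 point per mouse, CHL2 mutants left of wild type, with the mean and SD of the 4 mice beside each group and a dotted line at a level of 5. The groups are apart for Hoxc4, Onecut1, Nkx2-2, Lhx2 and Gbx1 and overlap for Pax6, and the wild-type values of Hoxc4 and Onecut1 lie under 5.

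The regions around the starts of these genes are shown because many homeobox genes begin in stretches rich in CpG, the dinucleotide at which DNA is methylated and to which polycomb complexes are known to be drawn. The sequences are RefSeq windows of build GRCm38.p6, from 250 bases before to 50 after an annotated start, with each CG in capitals. Windows were found for 5 of the 6 genes, and for Lhx2 and Pax6 the first of a pair of annotated starts is given. In order they lie at chr15:103034145-103034444 (plus strand), chr9:74861671-74861970 (plus), chr2:147186353-147186652 (minus), chr2:105668646-105668945 (plus) and chr2:38339031-38339330 (plus).
Hoxc4: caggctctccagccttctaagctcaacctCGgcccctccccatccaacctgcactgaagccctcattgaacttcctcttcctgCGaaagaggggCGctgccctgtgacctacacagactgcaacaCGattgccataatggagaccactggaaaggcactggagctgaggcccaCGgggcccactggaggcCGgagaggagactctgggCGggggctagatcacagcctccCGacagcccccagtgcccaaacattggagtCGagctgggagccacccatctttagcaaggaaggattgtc
Onecut1: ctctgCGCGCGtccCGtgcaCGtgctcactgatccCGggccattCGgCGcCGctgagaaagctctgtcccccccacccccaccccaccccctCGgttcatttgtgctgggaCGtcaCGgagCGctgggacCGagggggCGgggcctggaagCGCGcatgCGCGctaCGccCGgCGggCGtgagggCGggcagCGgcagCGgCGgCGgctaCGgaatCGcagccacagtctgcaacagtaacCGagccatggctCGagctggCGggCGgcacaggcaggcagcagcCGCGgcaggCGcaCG
Nkx2-2: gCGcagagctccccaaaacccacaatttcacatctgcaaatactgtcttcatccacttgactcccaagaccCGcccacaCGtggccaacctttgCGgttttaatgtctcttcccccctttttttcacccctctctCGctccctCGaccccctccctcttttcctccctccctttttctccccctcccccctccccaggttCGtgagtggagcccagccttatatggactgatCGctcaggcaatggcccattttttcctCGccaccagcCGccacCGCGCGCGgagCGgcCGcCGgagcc
Pax6: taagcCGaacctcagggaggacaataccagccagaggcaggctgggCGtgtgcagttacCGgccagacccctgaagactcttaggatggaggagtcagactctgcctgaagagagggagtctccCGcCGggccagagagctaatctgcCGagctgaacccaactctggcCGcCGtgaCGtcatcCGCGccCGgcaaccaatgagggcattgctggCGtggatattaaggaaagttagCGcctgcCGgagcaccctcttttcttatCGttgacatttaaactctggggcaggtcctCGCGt
Lhx2: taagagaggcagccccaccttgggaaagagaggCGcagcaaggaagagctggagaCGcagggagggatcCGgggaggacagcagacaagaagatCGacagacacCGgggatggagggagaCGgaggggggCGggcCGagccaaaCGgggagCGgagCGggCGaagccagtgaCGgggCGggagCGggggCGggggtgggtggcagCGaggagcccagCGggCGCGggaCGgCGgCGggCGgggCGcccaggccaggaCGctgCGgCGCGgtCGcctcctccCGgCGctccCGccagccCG
Hoxc4 had the fewest CG in its window, 9, against 38 for Onecut1, 34 for Lhx2, 18 for Pax6 and 17 for Nkx2-2. Over the 67 windows found for 56 protein-coding members the median was 17, and 82.1% held 10 or more, against a median of 7 and 43.5% over all 32851 windows of the table. Among the 67 windows the number ranged from 4 to 45, so the Onecut1 and Lhx2 windows lay toward the upper end and the Hoxc4 window below the median.

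Short motifs were looked for on both strands of the same windows. GGGCGG, the core of a GC box, which itself holds a CG, was in the windows of Hoxc4, Onecut1, Nkx2-2 and Lhx2 printed above and in 58.2% of member windows, against 35.7% of all. The full cyclic AMP response element TGACGTCA was in the Pax6 window alone among the 67, against 1.79% of all windows. CCAAT was in those of Hoxc4 and Pax6 and in 47.8% of member windows, against 37.4% of all. TATAAA and TAATTA, the core that many homeodomains bind, were in none of the 5 windows printed, and in 8.96% and 7.46% of member windows, against 13.6% and 5.29% of all.

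Among the Hox genes Hoxc4 was the 1 that passed. That is 3.03% of the protein-coding ones, against 12.4% of all genes and 2.54% of genes with a mean under 5. The 4 clusters held 33 protein-coding members, and the other 32 had log2 changes between -0.21 and 0.20. All 8 values lay under 5 for 27 of the 33. Hoxa5, Hoxa7, Hoxa9 and Hoxc9 had means over 5, at 6.28, 5.31, 5.25 and 5.28, with log2 changes of -0.08, -0.11, -0.05 and -0.08 and adjusted p of 0.599 to 0.804. For Hoxa5 the level depended on the probe set, since its second one averaged 3.53, and for Hoxa9 it averaged 3.53 likewise.

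The neighbours of Hoxc4 in its cluster, Hoxc5 and Hoxc6, were each read by 3 probe sets. By the brightest, Hoxc5 averaged 4.04 ± 0.30 in mutants and 4.12 ± 0.20 in wild-type mice, and Hoxc6 4.77 ± 0.25 in mutants and 4.80 ± 0.25 in wild-type mice (SD, n = 4 each), with limma adjusted p of 0.835 and 0.656. The dimmest probe set of Hoxc5 had values of 3.48, 4.23, 3.67 and 3.62 in mutants 141, 153, 154 and 191, against 3.33, 3.37, 3.15 and 3.25 in wild-type mice 161, 170, 180 and 200, and the dimmest of Hoxc6 had 4.67, 4.94, 4.22 and 4.22 in the same mutants, against 4.12, 4.15, 3.84 and 4.18 in the same wild-type mice. Neither overlapped between the groups, and neither passed among all probe sets, with log2 changes of 0.41 (adjusted p = 0.210) and 0.33 (adjusted p = 0.376). In another cluster the dimmer probe set of Hoxb3, under 5 in every mouse, likewise lay higher in all mutants. Its log2 change was 0.13 (limma adjusted p = 0.464). By the brightest probe set of each gene, the groups did not overlap for 20.7% of all genes and for 5.73% of genes with a mean under 5. The share over all probe sets was not taken. The middle probe sets overlapped, with log2 changes of 0.17 for Hoxc5 and 0.08 for Hoxc6. Each value of these dimmest probe sets lay under 5. The 3 antisense transcripts of the clusters, Hoxa11os, Hoxb5os and Hoxd3os1, had log2 changes of 0.14, -0.07 and 0.11.

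**Figure D3:**
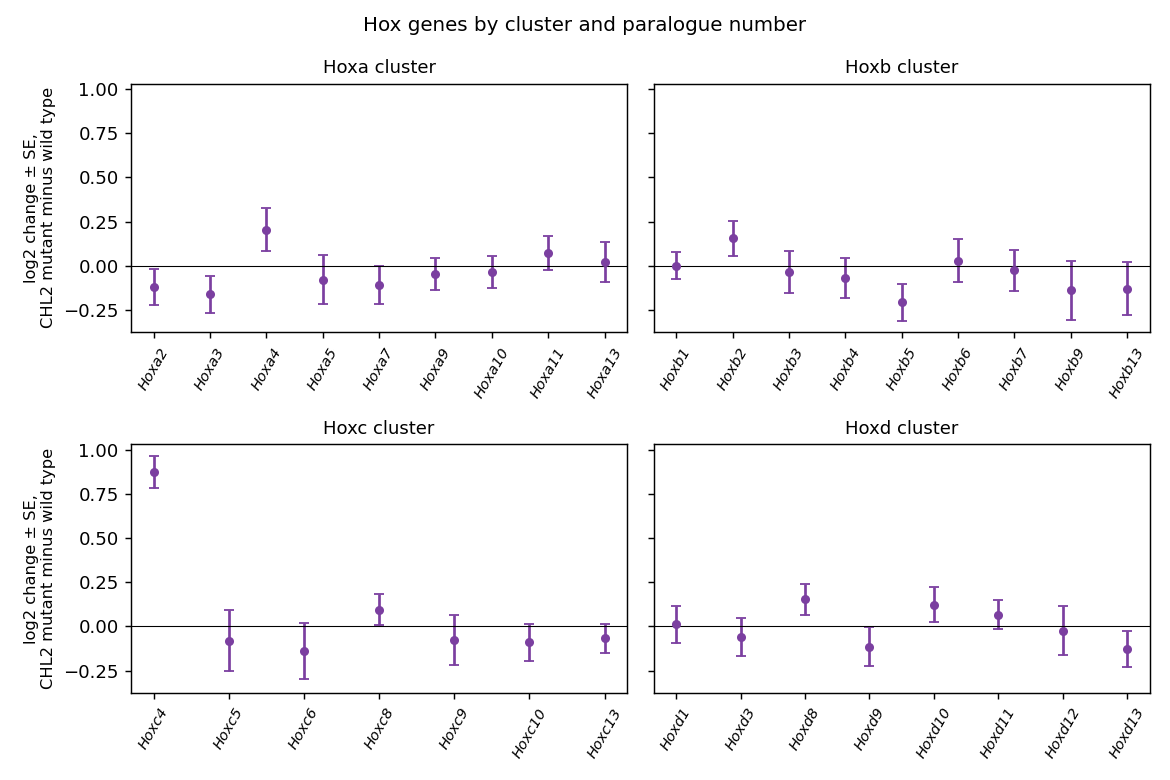
Log2 change of the CHL2 mutants over wild type with its SE (vertical axis) for the 33 protein-coding Hox members, 1 panel per cluster, ordered by paralogue number. Hoxc4 stands at 0.88, and the other genes lie between -0.21 and 0.20.

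Factors of the developing forebrain were taken as a list of 12 members. Of these Pax6 rose, Lhx2 and Gbx1 fell and 9 did not pass, so that 25.0% were called, against 12.4% of all genes and 18.4% of genes with a mean of 5 or more, a level that 9 of the 12 reached. Gbx1, with a mean of 4.55, did not reach it. The list was chosen with earlier results of these data known, so its share is no independent comparison. The list's median log2 change was -0.09. Six3, which in the mouse embryo serves the birth of striatal projection neurons, had values of 9.55, 9.32, 9.33 and 9.39 in mutants 141, 153, 154 and 191, against 9.59, 9.85, 9.50 and 9.65 in wild-type mice 161, 170, 180 and 200. Mutant 141 reached into the wild-type range, and the log2 change of -0.23 (SE 0.11) had an adjusted p of 0.210. A second Six3 probe set lay under 5 in every mouse. It passed among all probe sets (log2 change -0.59, adjusted p = 0.0158), though its groups overlapped, and the remaining probe set had a log2 change of 0.10.

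Dlx genes encode homeodomain factors that specify GABAergic neurons of the ventral forebrain. Dlx1 averaged 5.80 ± 0.13 in mutants and 5.79 ± 0.09 in wild-type mice (SD, n = 4 each), a log2 change of -0.05 (SE 0.09), and Dlx2 had one of -0.09 (SE 0.13). Dlx5 averaged 5.91 ± 0.18 in mutants and 6.20 ± 0.11 in wild-type mice, with a log2 change of -0.31 (SE 0.12, limma adjusted p = 0.122). Dlx6 varied most of these 4, from 5.17 to 6.19 in mutants and from 5.41 to 6.15 in wild-type mice. Of the transcripts from the opposite strand of these genes, Dlx6os1 was between 4.38 and 4.97 in mutants and between 4.83 and 5.60 in wild-type mice (log2 change -0.32, adjusted p = 0.228), and Dlx1as had a log2 change of -0.27 (adjusted p = 0.195). None of the 10 Dlx members passed, against 12.4% of all genes. Dlx6os1 passed with sex left out of the fit when wild-type mouse 161 (log2 change -0.69, adjusted p = 0.0166) or mutant 191 (log2 change -0.64, adjusted p = 0.0452) was left out too.

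Lhx6, a factor of parvalbumin and somatostatin interneurons, averaged 6.59 ± 0.11 in mutants and 6.72 ± 0.21 in wild-type mice (SD, n = 4 each), with a log2 change of -0.23 (adjusted p = 0.247). Lhx8, a factor of cholinergic interneurons, was measured at 6.76, 6.64, 6.93 and 7.45 in mutants 141, 153, 154 and 191, against 6.82, 7.22, 7.08 and 7.17 in wild-type mice 161, 170, 180 and 200, and had a log2 change of 0.12 (adjusted p = 0.542). The groups overlapped for both. The markers of these cells were measured beside them: 0 of 4 cholinergic markers passed, with Chat and Slc5a7 under 5 in every mouse, and 1 of 7 GABAergic interneuron markers, Nos1, fell by 0.43 on the log2 scale. That 1 of 7 is 14.3%, against 12.4% of all genes. Nkx2-1, which acts upstream of Lhx6 and Lhx8 in the embryo, lay under 5 in all mice, as did Otx1. Their log2 changes were 0.08 and -0.05.

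**Figure D4:**
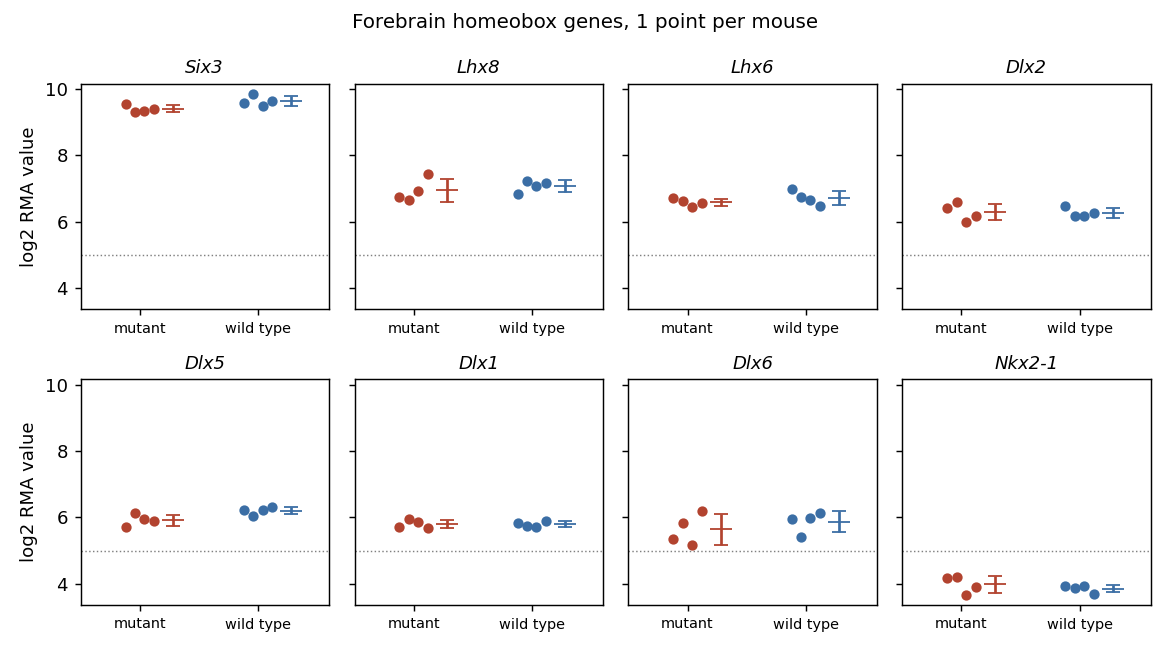
Log2 RMA values of 8 forebrain homeobox genes, 1 point per mouse, CHL2 mutants left of wild type, with the mean and SD of the 4 mice beside each group and a dotted line at a level of 5. The groups overlap for each of the 8 genes, and Nkx2-1 lies under 5 in all mice.

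Markers of the neurons that these factors help to form were read from the same arrays. These markers, which define striatal tissue, were bright in both genotypes. All 9 measured markers of medium spiny neurons, the projection neurons that Six3 and Dlx genes serve in the embryo, fell, with a median log2 change of -1.42, and their mean log2 level ranged over 10.25 to 10.45 in mutants and 11.72 to 11.86 in wild-type mice. Their part in the values of Six3 and Dlx5 was not tested.

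Among the other Onecut genes, Onecut2, a relative of Onecut1, was measured at 9.16, 9.06, 9.05 and 9.26 in mutants 141, 153, 154 and 191, against 8.66, 9.22, 9.07 and 9.11 in wild-type mice 161, 170, 180 and 200. Wild-type mouse 161 lay below all others, and the groups overlapped. Its log2 change of 0.28 (SE 0.09) had an adjusted p of 0.0843, and it passed under a trended prior (adjusted p = 0.0331). It also passed when dim genes were left out (adjusted p = 0.0392) and when its 3 probe sets were averaged (log2 change 0.30, adjusted p = 0.0426), while without wild-type mouse 161 the log2 change was 0.13 (adjusted p = 0.665). Onecut3 was under 5 in all mice, with a log2 change of 0.04. The second probe set of Onecut1 was also under 5 throughout, and had a log2 change of 0.02, so 1 of its 2 probe sets showed the rise.

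The remaining members, many of which pattern other organs and brain regions, did not pass. Msx1, a factor of limb, tooth and skull development, averaged 5.84 ± 0.41 in mutants and 6.07 ± 0.23 in wild-type mice (SD, n = 4 each), a log2 change of -0.37 (SE 0.20, limma adjusted p = 0.279), and Msx3 had one of 0.02. A second probe set of Msx1, also above 5 in every mouse, had a log2 change of 0.03 (limma adjusted p = 0.936). All 6 Irx genes lay under 5. Irx5 averaged 4.05 ± 0.14 in mutants and 3.72 ± 0.15 in wild-type mice, with an adjusted p of 0.135 for a log2 change of 0.29. Irx5 passed in 3 of 17 alternative settings, with a lowest limma adjusted p of 0.0217. Among them were the fit without sex (adjusted p = 0.0417) and the one without wild-type mouse 170 (adjusted p = 0.0397). At the floor of 5 its log2 change was 0. Of the Nkx2 genes besides Nkx2-2, those with means over 5 were Nkx2-9 at 6.99, Nkx2-6 at 6.15 and Nkx2-3 at 5.43, with log2 changes of -0.13, -0.07 and -0.10. Pax4 at 5.30 had a log2 change of 0.07 and Six5 at 5.07 one of -0.03. The 8 Pax members besides Pax6 had log2 changes between -0.15 and 0.07, the 2 Pitx members -0.01 and -0.04, and Gbx2 -0.12. Lhx1, Lhx1os, Lhx3, Lhx4, Lhx5 and Lhx9, of which several specify spinal and brainstem neurons, were under 5 in every mouse and had log2 changes of -0.18 to 0.08. Over all families, 0 of the 11 antisense or opposite-strand transcripts passed, with log2 changes of -0.32 to 0.14. All had means under 5, a level at which 2.54% of all genes passed.

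Otx2 is named after its values were seen, because its 8 values spanned the widest range of any member. It is a head-patterning factor that the adult brain makes in the choroid plexus, the tissue in the ventricles that produces cerebrospinal fluid. It had values of 5.47, 3.33, 3.60 and 4.31 in mutants 141, 153, 154 and 191, against 4.87, 3.85, 4.17 and 4.14 in wild-type mice 161, 170, 180 and 200, so 1 mouse of each genotype stood highest. Those were also the mice with the highest mean log2 level of 8 choroid plexus and ependyma markers, which was 7.51, 5.39, 5.36 and 5.97 in the same mutants and 7.05, 5.55, 6.40 and 6.03 in the same wild-type mice. Ttr, an abundant transcript of the choroid plexus, ranged over 10.78 to 14.05 in mutants and 11.63 to 13.92 in wild-type mice. Of the 8 markers, 0 passed between the genotypes, against 12.4% of all genes. Otx2 itself had a log2 change of -0.24 (SE 0.455, limma adjusted p = 0.808). Of the 6 members past the threshold, Gbx1 alone was likewise highest in mutant 141 among mutants and in mouse 161 among wild-type mice. Its value of 4.48 in mutant 141 stood beside 4.47 in mutant 153, where the marker mean was 5.39. The part of choroid plexus tissue in the Gbx1 result was not tested.

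**Figure D5:**
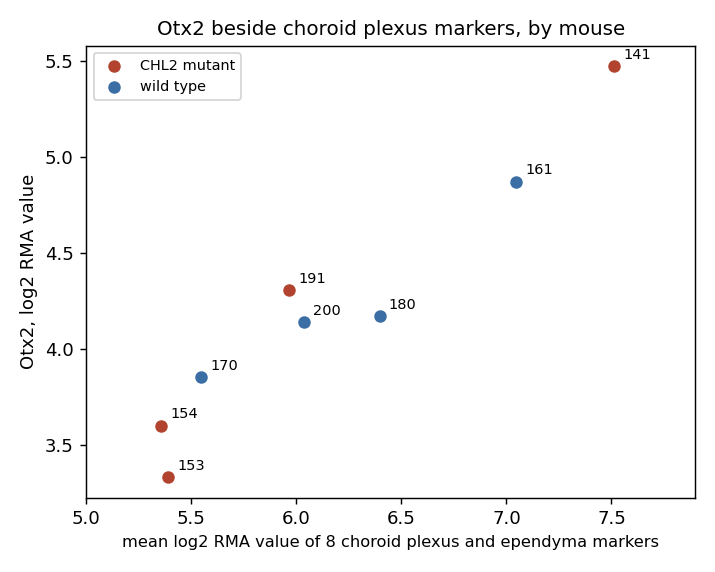
Otx2 (log2 RMA value, vertical axis) against the mean log2 RMA value of 8 choroid plexus and ependyma markers (horizontal axis) in each of the 8 mice, labelled by mouse number. Mutant 141 and wild-type mouse 161 are the highest on both axes, and the genotypes are mixed along them.

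At the level of single probe sets, 6 of the 152 that belong to members (3.95%) passed, against 6.70% of all 45037 probe sets. They were those of Hoxc4, Onecut1, Nkx2-2, Lhx2 and Gbx1 named above and the second probe set of Six3, and Pax6 missed the threshold (adjusted p = 0.0644). Hoxc4, Nkx2-2, Lhx2 and Gbx1 were each read by 1 probe set, so no other could be compared.

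The proteins that work with Hox factors or control their genes were measured as well. Of 8 Hox cofactors of the Meis, Pbx and Pknox families, which bind DNA jointly with Hox proteins, 0 passed in limma, with 2 (25.0%) at an unadjusted p under 0.05, against 25.8% of all genes. Those were Meis1, with a log2 change of 0.41 (adjusted p = 0.0924), and Meis2, a factor abundant in striatal neurons, with one of -0.25 (adjusted p = 0.0947). The list's median was -0.07, and in the fit without sex 1 cofactor fell. Of 35 polycomb and trithorax genes, 6 rose and 0 fell, with a median log2 change of 0.05. That is 17.1%, against 12.4% of all genes and 18.4% of genes with a mean of 5 or more, a level that 34 of the 35 reached. The 4 with the lowest adjusted p were Sfmbt2 (adjusted p = 1.15e-06), Bmi1 at 1.49-fold (adjusted p = 0.00286), L3mbtl3 at 1.39-fold (adjusted p = 0.00664) and Rnf2 at 1.33-fold (adjusted p = 0.00768). Sfmbt2 averaged 5.98 ± 0.34 in mutants and 3.70 ± 0.23 in wild-type mice (SD, n = 4 each), with all wild-type values under 5, and its log2 change of 2.54 was 1.14 at the floor of 5 (adjusted p = 0.0153). Rnf2 lost its call on the mean of its probe sets (log2 change 0.13, adjusted p = 0.288), without mutant 191 (adjusted p = 0.108) and without wild-type mouse 161 (adjusted p = 0.0770), and in both cases with sex left out too. L3mbtl3 lost it without either mouse (adjusted p = 0.108 and 0.0641), and Bmi1 without mutant 191 (adjusted p = 0.0813). Bmi1 and Rnf2 encode core subunits of polycomb repressive complex 1. Without mutant 191 the count was 1 and without wild-type mouse 161 it was 3. Dropping the sex term there gave 7 and 5. Ezh2, Eed and Suz12, the core of polycomb repressive complex 2, had log2 changes of -0.24, 0.22 and 0.39 and did not pass.

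Homeobox genes outside the chosen families were measured too. Of 74, 6 rose and 2 fell (10.8%, against 12.4% of all genes), with a median log2 change of -0.04. Shox2, a factor of limb and heart development, averaged 8.08 ± 0.36 in mutants and 3.76 ± 0.14 in wild-type mice (SD, n = 4 each), a log2 change of 4.24 (SE 0.17, limma adjusted p = 7.83e-07). All its wild-type values lay under 5, and with its probe sets averaged the log2 change was 2.75. At the floor of 5 it passed (adjusted p = 0.0032). Lmx1b, a factor of midbrain dopamine neurons, rose 1.76-fold and Pou4f1, a factor of sensory and habenular neurons, 1.43-fold, the first with all wild-type values and the second with all 8 values under 5. Pou3f1 fell by 0.78 on the log2 scale. All 4 had an adjusted p of 0.00634 or lower. The calls of Lmx1b (log2 change 0.28, adjusted p = 0.297) and Pou4f1 (log2 change 0) were lost at the floor, and that of Pou4f1 without wild-type mouse 161 (adjusted p = 0.129).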

How the data were processed

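Striatal RNA of 8 mice was measured on 1 array each, and the number of arrays limits the precision. The authors' deposited values are log2 values made with RMA in the affy package, per the submitters' processing notes; their versions are not stated there. Of 45101 probe sets, 64 controls were left out, 34945 had 1 gene symbol in the platform annotation, 932 had several and 9160 were unlisted. Array medians lay between 4.95 and 4.98. For each of 18194 genes the single-gene probe set with the highest mean was fitted in limma 3.58.1 (R 4.3.3) with genotype and recorded sex, with Benjamini-Hochberg adjustment over all genes. A fit over 45037 probe sets was run likewise. The fit was tested on simulated data. Groups came from the labels. Named genes were the members past the threshold, those with a mean of 5 or more, the 3 largest uncalled changes at each level, 12 forebrain members, up to 4 genes of each related list and Shox2; Otx2 and other exceptions were chosen after their values were seen. Marker lists for thalamus and habenula (1 of 7 called, Rora higher), pallidum, septum and hypothalamus (0 of 9), hindbrain and spinal cord (0 of 6) and meninges and vessels (0 of 8) were measured too. Over all genes 12.4% were called. The members and lists were chosen with earlier results of these data known. Alternatives were another prior, normalization, filter, probe set rule, array weights, a floor at 32 on the linear scale, no sex term, and each mouse left out. Protein sequences were not used here.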

Additional observations from a re-analysis of the deposited data

Results flagged for a closer look

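Among 76 groups of 4 mice, from 38 named genes, 4 held a mouse far from the rest by Dixon's criterion, which chance exceeds in about 1 in 20 groups. Onecut1 was 5.82 in mutant 153, with the next mutant at 5.38. Pax4 was 5.40 in wild-type mouse 170, with the next wild-type mouse at 5.24. Irx5 was 3.94 in the same wild-type mouse, with the next at 3.66. L3mbtl3 was 6.58 there, with the next at 6.39. Without mutant 153 the rise of Onecut1 was 0.79 on the log2 scale and kept its call (limma adjusted p = 0.00298).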

How the results depend on the processing

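The count of members called moved with the treatment of dim values and with mice 161 and 191, the female of the wild-type group and the male of the mutant group, without which recorded sex is constant within that genotype. Against 4 higher and 2 lower, 1 and 1 were called with genes below the median level left out and 1 and 0 with the floor at 32. The first of these took Hoxc4, Onecut1, Nkx2-2, Pax6 and Gbx1 out of the test, and its 1 riser was Onecut2. Shox2, Lmx1b and Pou4f1 also went untested there. At the floor Lhx2 lost its call although its own values were unchanged. Leaving out each mouse in turn gave 2 to 4 higher and 0 to 2 lower. Without wild-type mouse 161 it was 2 and 0, or 2 and 3 with sex left out too, and without mutant 191 it was 2 and 1, or 5 and 2 without sex. For member probe sets, 3 and 3 became 1 and 0 at the floor, 2 and 1 without sex, 4 and 1 without the dimmer genes, 3 and 1 without mutant 191 and sex, and 1 to 4 higher and 0 to 4 lower with 1 mouse left out. Of the Hox cofactors, 0 passed, but 1 fell without sex, with the trended prior, without the dimmer genes and in both fits without sex and without mouse 161 or 191, and 2 fell on the mean of probe sets. Polycomb and trithorax genes, 6 higher and 0 lower, gave 1 to 7 higher with 1 mouse left out, and 1 lower without mouse 161 and sex. Other homeobox genes, 6 and 2, gave 3 and 1 without the dimmer genes and at the floor, 3 higher on the mean of probe sets, 1 lower after quantile normalization and with array weights, and 3 to 7 higher and 1 to 2 lower with 1 mouse left out. The share of all genes called in each setting is not given beside these counts. A shift over all genes therefore cannot be told apart from one in these lists. The cause was not tested. Of the 14 called genes refitted singly, which leave out the cell type markers, none changed direction in the settings run, except that Pou4f1 had a log2 change of 0 at the floor, and of 24 uncalled named members 14 had the opposite sign in at least 1. No paired analysis was possible because the groups share no replicate numbers.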
